A study of Homo sapiens with 8 samples.

Results

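Asparagine, glutamine and aspartate are made inside the cell from one another and from intermediates of the citric acid cycle, and the 8 genes described here encode enzymes that carry out or resemble these steps. They were chosen by name, with earlier results of these data known, as ASNS, GLUL, GLUD1, GOT1, GOT2, GPT2, ASNSD1 and NADSYN1. All 8 were found among the 12235 genes listed in the ribosome profiling of HEK293T cells. Ribosome profiling sequences the mRNA fragments that ribosomes shield from nuclease, so the density of these footprints on a coding sequence follows how many ribosomes were on it. HEK293T is an established human embryonic kidney cell line, here wild type and carrying the SV40 large T antigen. All cultures were kept in medium with dialyzed serum. Sufficient medium (Suff) had every amino acid at its normal level, and Arg-, Leu- and Met- media lacked arginine, leucine or methionine, in which the cells stayed overnight according to the labels. Each of these 4 conditions was profiled with cycloheximide (CHX), a drug that holds elongating ribosomes in place, and again without CHX pretreatment. The 8 libraries therefore stand for 8 conditions with 1 library each. No difference has a replicate check and none was tested. Intervals given are exact 95% intervals of the recovered read counts, which cover counting error only and treat amplified reads as independent molecules.

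ASNS (asparagine synthetase) makes asparagine from aspartate and takes the amide nitrogen from glutamine. GLUL (glutamine synthetase) makes that glutamine from glutamate and ammonia. GOT1, GOT2 and GPT2 move amino groups between glutamate and the carbon skeletons of oxaloacetate and pyruvate. GLUD1 interconverts glutamate with 2-oxoglutarate and ammonia. Shortage of an amino acid can activate the kinase GCN2, which phosphorylates the initiation factor eIF2, through uncharged tRNA. The transcription factor ATF4, made in greater amount as a result, is known to act on ASNS through an element in its promoter. In this cell line the authors measured more phosphorylated eIF2 without leucine or arginine, but found no such effect without methionine. The part of GCN2 in the values below was not tested.

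The values are RPKM, footprint reads per kilobase of coding sequence, scaled to the sum of such reads in the library, and are scaled to the full coding length, not to the part of it in which a read maps uniquely. Each gene is represented by its transcript with the highest RPKM in that library. With CHX the libraries held 538222 to 6434043 reads on coding sequences and listed 2021 to 8906 genes, with the fewest of both in Met-. Without CHX they held 1302523 to 3139745 reads and listed 10871 to 11437 genes. A listed mRNA had at least 64 reads with CHX and at least 5 without, so a gene that is not listed has only an upper limit, which differs between libraries. All 7 markers fixed for HEK293T cells were listed in at least 2 libraries. CKB, at 1343 to 2846 RPKM, and VIM, at 97.6 to 626 RPKM, were listed in all 8. The least often listed were PAX2, in 2 libraries at 3.20 to 6.73 RPKM, and KRT8, in 4 at 8.92 to 18.0 RPKM. Of 8 markers of blood, liver, fibroblast, muscle and endothelial cells 1 was listed, COL1A1, in 5 libraries at 1.59 to 20.2 RPKM. RPKM is a share of the library, so more ribosomes per mRNA cannot be told apart from more mRNA, and a change shared by all mRNAs does not show.

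The promoter of ASNS holds both parts of the element through which amino acid shortage is known to act on it, and these letters are printed because ASNS is the member with the largest ratios. In the 30 bases that follow, the capitals mark TGATGNAA, the core of the site bound by C/EBP and ATF family proteins, and GTTACA, the second nutrient-sensing response element. The second stretch is from GOT1, the only other member whose window held either motif, and its capitals mark TGATGCAA as read on the opposite strand.
ASNS: caTGATGAAActtcccgcacgcGTTACAgg
GOT1: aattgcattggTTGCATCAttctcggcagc
The ASNS stretch is chr7:97872449-97872478 of GRCh38.p14, minus strand, from 70 to 41 bases before the gene's start in the RefSeq window. It lies in an exon of 1 of the 17 ASNS transcripts of GENCODE release 44 and in the coding sequence of none. The GOT1 stretch is chr10:99430804-99430833 on the minus strand, from 209 to 180 bases before the start and outside all 3 GENCODE transcripts of the gene. Both strands were searched in the RefSeq promoter windows, which were held for 7 of the 8 members. No window was held for GPT2, so its promoter was not searched. Of all 35116 windows, 3.62% held TGATGNAA, 6.66% held GTTACA and 0.498% held both. A match describes letters and is not a measured binding site.

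ASNS showed the largest ratio to Suff among the enzymes measured on both sides, in all 3 deficient media and in both series. With CHX its footprint density was 22.3 RPKM (96 reads) in Suff, 618 RPKM (5213 reads) in Arg-, 262 RPKM (2839 reads) in Leu- and 178 RPKM (161 reads) in Met-. Without CHX it was 68.0 RPKM (360 reads) in Suff, 689 RPKM (1871 reads) in Arg-, 607 RPKM (1531 reads) in Leu- and 392 RPKM (861 reads) in Met-. The Suff library was the lowest and Met- the lowest of the deficient libraries in both series. With CHX the ASNS level over Suff was 27.7-fold in Arg- (interval 22.7 to 34.3), 11.8-fold in Leu- (9.60 to 14.6) and 7.98-fold in Met- (6.16 to 10.4). Without CHX it was 10.1-fold in Arg- (9.05 to 11.4), 8.92-fold in Leu- (7.95 to 10.0) and 5.77-fold in Met- (5.09 to 6.54). Among all genes with a mean of at least 10 RPKM in the pair, without CHX, its ratio ranked 17 of 7466 in Arg-, 10 of 7565 in Leu- and 36 of 7897 in Met-. With CHX it ranked 1 of the 5074 genes listed in both libraries for Arg-, 1 of 5208 for Leu- and 71 of 1890 for Met-. A noncoding model of GENCODE release 44 holds 100% of the 30-base windows of the ASNS coding sequence, and whether the transcriptome used for mapping held that model is not given in the sources used here. No window is shared with the protein-coding transcripts of another gene.

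**Figure D1:**
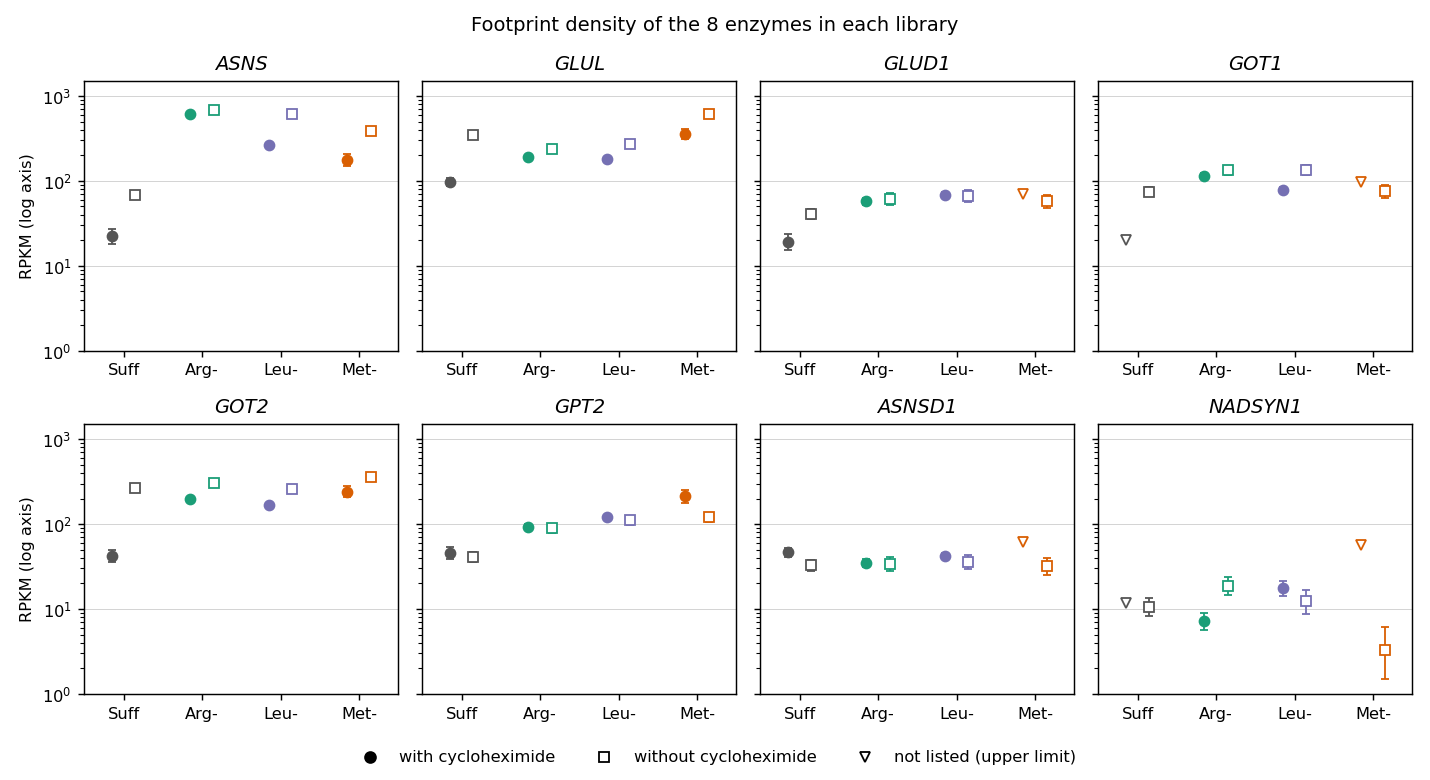
Footprint density of each enzyme (RPKM, log axis) in the 4 media, filled circles with CHX and open squares without. Bars are exact 95% counting intervals of 1 library each, and open triangles are upper limits for genes that were not listed. ASNS lies highest in Arg- in both series, at 618 and 689 RPKM, while ASNSD1 stays between 31.8 and 46.4 RPKM wherever it was listed.

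GLUL, the source of the amide donor, was the most abundant of the 8 in both Suff libraries and its ratios depended on the series. With CHX its density was 97.0 RPKM in Suff, 192 RPKM in Arg-, 180 RPKM in Leu- and 357 RPKM in Met-. In the series without CHX GLUL stood at 345 RPKM in Suff, 235 RPKM in Arg-, 270 RPKM in Leu- and 608 RPKM in Met-. Met- was thus the highest library in both series, whereas Suff was the lowest with CHX and the second highest without it. The level in Met- was 3.68-fold that in Suff with CHX (3.06 to 4.41) and 1.76-fold without (1.61 to 1.92). In Arg- it was 1.98-fold Suff with CHX (1.73 to 2.27) but 0.679-fold without (0.607 to 0.759). In Leu- it was 1.85-fold with CHX (1.63 to 2.12) but 0.782-fold without (0.701 to 0.872). The sign of the GLUL ratio in Arg- and Leu- therefore differed between the series, and stayed so when ratios were centred on the median of all genes listed in both libraries. The series listed different transcripts of GLUL, both with a coding sequence of 1119 bases before the stop codon, which was counted in the length only without CHX. They also differ in the lowest read count listed and, by the names of the deposited files, in the removal of duplicate reads. The part of CHX in the GLUL difference cannot be told apart from the part of these.

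GLUD1, the mitochondrial glutamate dehydrogenase, had a density with CHX of 19.1 RPKM in Suff, 57.2 RPKM in Arg- and 68.8 RPKM in Leu-, and was not listed in Met-, where the limit was 71.0 RPKM. In the other series GLUD1 was at 40.6 RPKM in Suff, 61.1 RPKM in Arg-, 66.9 RPKM in Leu- and 57.2 RPKM in Met-. Suff was the lowest measured library in each series. The level over Suff was 2.99-fold in Arg- (2.36 to 3.83) and 3.60-fold in Leu- (2.86 to 4.57) with CHX. The corresponding ratios without CHX were 1.50-fold in Arg- (1.22 to 1.85), 1.65-fold in Leu- (1.34 to 2.02) and 1.41-fold in Met- (1.12 to 1.76). Of all windows of 30 bases in its coding sequence, 56.4% also occur in protein-coding transcripts of other genes, namely GLUD2, which was not listed in any library. Only uniquely mapped reads were kept, so the level of GLUD1 rests on part of its sequence.

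GOT1 and GOT2 are the cytosolic and mitochondrial aspartate aminotransferases, which make aspartate from oxaloacetate with glutamate as the donor. GOT1 with CHX was not listed in Suff, with a limit of 20.2 RPKM, was at 114 RPKM in Arg- and 78.5 RPKM in Leu-, and was not listed in Met-, with a limit of 96.0 RPKM. It was therefore at least 5.64-fold higher in Arg- and at least 3.89-fold higher in Leu- than in Suff, against the limit of 64 reads, and its Met- level gave no direction. Without CHX it was 74.9 RPKM in Suff, 134 RPKM in Arg-, 135 RPKM in Leu- and 75.4 RPKM in Met-. Arg- and Leu- lay together above Suff and Met-, at 1.80-fold Suff in Arg- (1.52 to 2.13) and 1.80-fold in Leu- (1.52 to 2.14). In Met- the ratio was 1.01 (0.809 to 1.25). The GOT1 level in Met- without CHX was 1.78-fold lower than in Arg- (1.43 to 2.23) and 1.79-fold lower than in Leu- (1.44 to 2.24).

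GOT2 with CHX was 42.1 RPKM in Suff, 199 RPKM in Arg-, 169 RPKM in Leu- and 242 RPKM in Met-. Without CHX GOT2 stood at 269 RPKM in Suff, 302 RPKM in Arg-, 258 RPKM in Leu- and 354 RPKM in Met-. All deficient libraries lay far above Suff with CHX, whereas the 4 levels lay close together without it. With CHX the level over Suff was 4.72-fold in Arg- (3.96 to 5.67), 4.02-fold in Leu- (3.38 to 4.82) and 5.75-fold in Met- (4.56 to 7.25). The ratios without CHX were 1.12-fold in Arg- (1.02 to 1.24), 0.959-fold in Leu- (0.860 to 1.07) and 1.32-fold in Met- (1.19 to 1.46).

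GPT2, the mitochondrial alanine aminotransferase that links glutamate to alanine, was the second member with an RPKM at least 2-fold that in Suff in all 3 media and in both series. With CHX it was 45.6 RPKM in Suff, 92.8 RPKM in Arg-, 120 RPKM in Leu- and 212 RPKM in Met-. Without CHX GPT2 was at 41.1 RPKM in Suff, 88.9 RPKM in Arg-, 111 RPKM in Leu- and 120 RPKM in Met-. Suff was the lowest and Met- the highest library by RPKM in each series, the reverse of the order of the deficient media for ASNS. The order of Met- and Leu- is uncertain for GPT2. Without CHX Met- was 1.08-fold Leu-, with an interval that included 1 (0.902 to 1.29). After centring on the median of all genes listed in both libraries, the log2 ratio of Met- over Leu- was -0.03 with CHX and -0.04 without. The level over Suff with CHX was 2.04-fold in Arg- (1.70 to 2.46), 2.64-fold in Leu- (2.22 to 3.16) and 4.66-fold in Met- (3.68 to 5.90). The GPT2 ratios without CHX were 2.16-fold in Arg- (1.78 to 2.62), 2.70-fold in Leu- (2.24 to 3.26) and 2.91-fold in Met- (2.41 to 3.52). The intervals for Arg- reached below 2-fold in both series. The series listed different transcripts of GPT2, with a coding sequence of 1269 bases with CHX and 1572 bases, the stop codon counted, without it.

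ASNSD1 resembles asparagine synthetase in sequence, and its mRNA also encodes a separate small protein, ASDURF, from an upstream reading frame. With CHX it was 46.4 RPKM in Suff, 35.2 RPKM in Arg- and 41.8 RPKM in Leu-, and it was not listed in Met-, where the limit was 61.6 RPKM. Without CHX ASNSD1 was at 32.6 RPKM in Suff, 34.1 RPKM in Arg-, 36.0 RPKM in Leu- and 31.8 RPKM in Met-. The levels lay close together, and the largest departure from Suff was the Arg- library with CHX, at 0.759-fold (0.640 to 0.901). In the other 4 measured ratios the interval included 1, from 0.902 in Leu- with CHX (0.771 to 1.06) to 1.10 in Leu- without CHX (0.860 to 1.40). ASDURF was not listed in any library as a gene of its own, and 40.3% of the 30-base windows of the ASNSD1 coding sequence are shared with ASDURF or a readthrough model in GENCODE release 44.

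NADSYN1, which uses glutamine as the nitrogen donor to amidate nicotinic acid adenine dinucleotide to NAD, had the fewest footprints of the 8. Without CHX it was 10.7 RPKM (71 reads) in Suff, 18.7 RPKM (64 reads) in Arg-, 12.3 RPKM (39 reads) in Leu- and 3.26 RPKM (9 reads) in Met-. The Met- library was the lowest and Arg- the highest. Over Suff the level was 1.76-fold in Arg- (1.23 to 2.50) and 1.15-fold in Leu- (0.759 to 1.73). In Met- it was 3.27-fold lower than in Suff (1.63 to 7.45) on 9 reads, in a pair with a mean under 10 RPKM. With CHX NADSYN1 was not listed in Suff (limit 11.8 RPKM) or Met- (limit 56.1 RPKM) and was at 7.26 RPKM in Arg-. In Leu- with CHX the highest transcript was one annotated for nonsense-mediated decay, at 17.6 RPKM, and the full coding sequence was at 4.77 RPKM (65 reads).

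**Figure D2:**
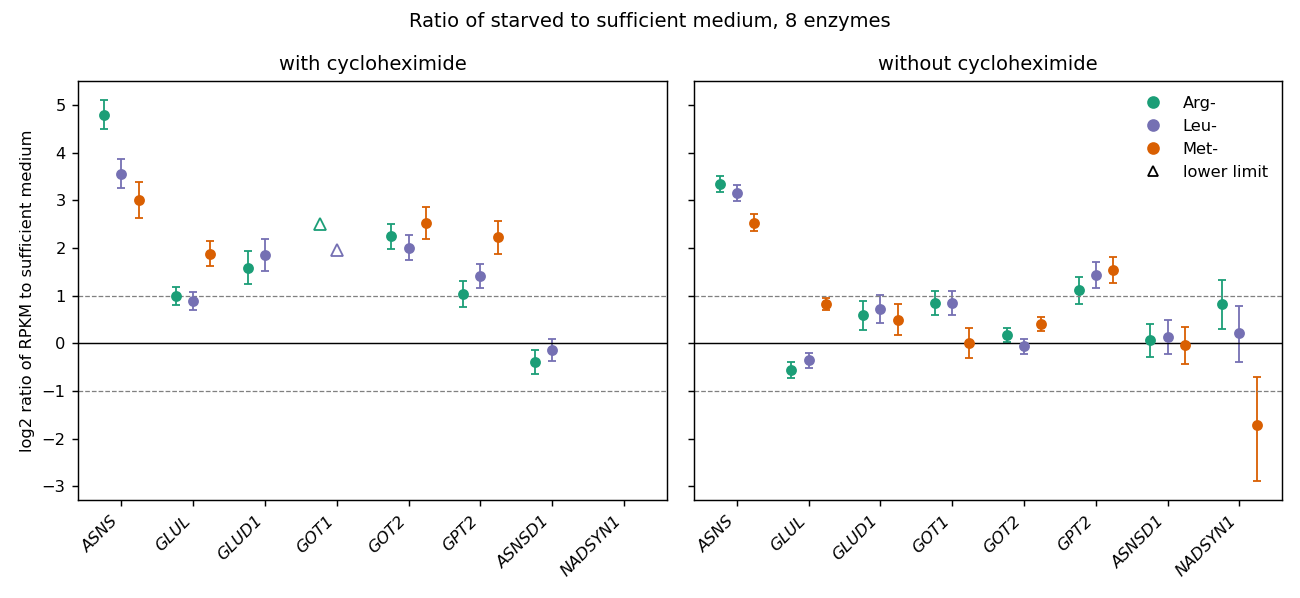
Log2 ratio of RPKM in each deficient medium to RPKM in Suff, with CHX on the left and without on the right. Points are 1 library against 1 library with exact 95% counting intervals, triangles are lower limits against an unlisted gene, and dashed lines mark 2-fold. ASNS and GPT2 lie at or above 2-fold for every medium in both panels, and GLUL in Arg- and Leu- lies above 0 on the left and under 0 on the right.

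To count members, 1 was added to every RPKM before the log2 ratio to Suff was formed, a step that shrinks the ratios of low mRNAs, and only pairs with a mean of at least 10 RPKM were kept. All 8 members passed this filter without CHX in Arg- and Leu- and 7 in Met-, where NADSYN1 did not. Without CHX, 2 members, ASNS and GPT2, were at least 2-fold higher in Arg- against 8.33% of all genes, the same 2 in Leu- against 6.89%, and the same 2 in Met- against 20.2%. No member that passed was at least 2-fold lower, against 6.05% of all genes in Arg-, 2.12% in Leu- and 5.47% in Met-. The median log2 ratio of the members that passed was 0.67 in Arg-, 0.45 in Leu- and 0.48 in Met-, and over all genes tested it was -0.02, 0.14 and 0.31.

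With CHX, 7 members passed in Arg- and in Leu- and 5 in Met-. ASNS, GLUD1, GOT1, GOT2 and GPT2 were at least 2-fold higher in Arg-, which is 5 of 7 against 29.7% of all genes, and in Leu-, again 5 of 7 against 26.3%. GOT1 passed only through the deficient library in these pairs. GLUL lay just under 2-fold in these 2 media, at a log2 ratio of 0.98 in Arg- and 0.88 in Leu-. In Met-, 4 of 5 members (ASNS, GLUL, GOT2 and GPT2) were at least 2-fold higher against 21% of all genes. The member counted lower in Met- was ASNSD1, against 61.9% of all genes, but it was counted at 0 because it was not listed and its limit of 61.6 RPKM lies above its level in Suff. None was lower in Arg- or Leu-, against 18.4% and 6.32% of all genes. Over genes listed in both libraries of a pair, 4 of 6 members were at least 2-fold higher in Arg- against 16.6% of such genes, 4 of 6 in Leu- against 12.1% and 4 of 4 in Met- against 46.7%. The Met- library with CHX had the fewest reads, and an mRNA needed 64 of its 538222 reads to be listed. The genes listed there and in Suff had a median log2 ratio of 0.89. The part of this listing limit in the median was not tested. After this median was subtracted the log2 ratios in Met- with CHX were 2.05 for ASNS, 1.61 for GOT2, 1.31 for GPT2 and 0.98 for GLUL.

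**Figure D3:**
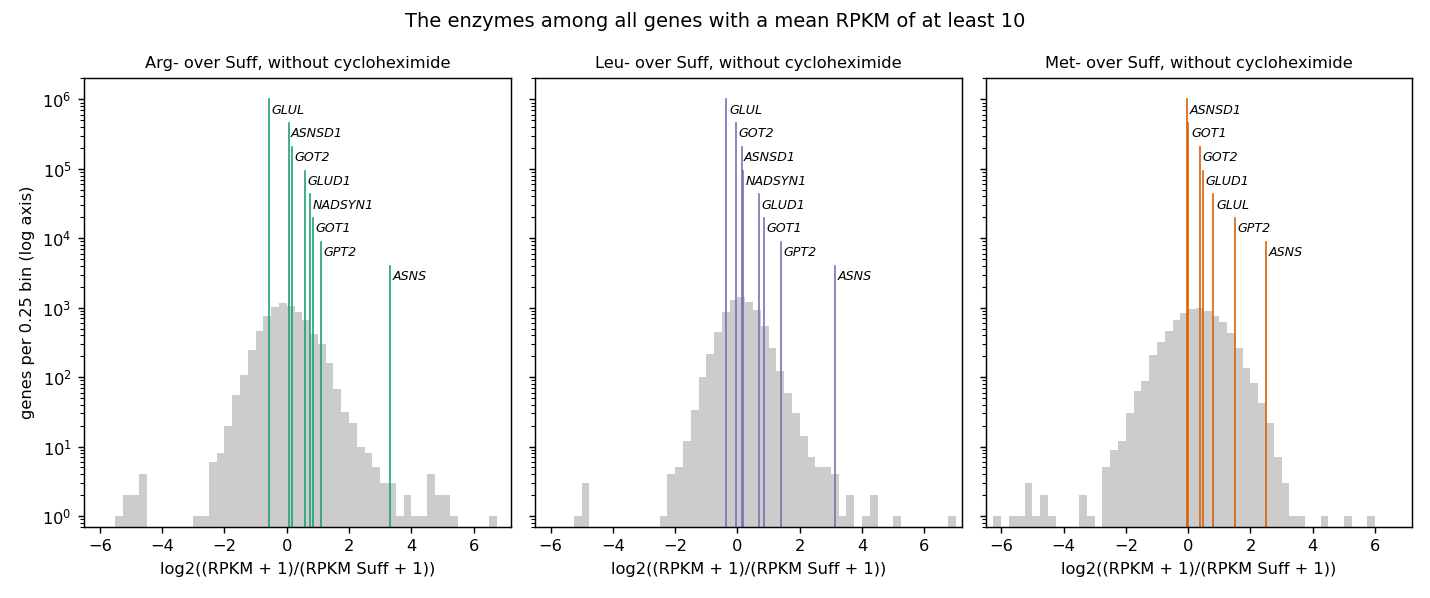
Log2 ratio to Suff without CHX for all genes with a mean of at least 10 RPKM (grey bars, genes per bin of 0.25 on a log axis), with a line at each enzyme that passed the same filter. ASNS stands in the sparse upper tail in each medium, at 3.32 in Arg-, 3.14 in Leu- and 2.51 in Met-, and GPT2 follows at 1.09, 1.41 and 1.52. The heights of the lines serve only to separate the names.

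The order of the enzymes by density changed with the medium. In Suff without CHX the order was GLUL, GOT2, GOT1, ASNS, GPT2, GLUD1, ASNSD1 and NADSYN1, in which the counting intervals of GOT1 and ASNS overlapped, as did those of GPT2 with GLUD1 and of GLUD1 with ASNSD1. In Arg- and in Leu- without CHX, ASNS stood first, clear of the next member, which was GOT2 in Arg- and GLUL in Leu-. In Met- without CHX, GLUL stood first at 608 RPKM, followed by ASNS at 392 RPKM and GOT2 at 354 RPKM, whose intervals overlapped. With CHX, ASNS was the fifth of 6 listed members in Suff, where its interval overlapped that of GLUD1, and the first of 8 in Arg- and Leu-, clear of the next. In Met- with CHX it was the last of the 4 that were listed, but its interval (151 to 207 RPKM) overlapped those of GPT2 (179 to 250 RPKM) and GOT2 (207 to 281 RPKM). These orders carry the limit that GLUD1 and ASNSD1 share part of their sequence with other genes, so their densities over the full coding length can be understated. GLUL shares 25.4% and GOT2 15.6% of their 30-base windows with noncoding or pseudogene transcripts and 0% with protein-coding ones. Whether the transcriptome used for mapping held those transcripts is not given in the sources used here.

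The deficient media were also compared with one another without Suff. Without CHX, the ASNS level in Met- was 1.76-fold lower than in Arg- (1.62 to 1.91) and 1.55-fold lower than in Leu- (1.42 to 1.68), and in Leu- it was 1.14-fold lower than in Arg- (1.06 to 1.22). With CHX, ASNS in Met- was 3.48-fold lower than in Arg- (2.97 to 4.09) and 1.48-fold lower than in Leu- (1.26 to 1.74), and in Leu- it was 2.36-fold lower than in Arg- (2.25 to 2.47). GLUL without CHX was 2.59-fold higher in Met- than in Arg- (2.30 to 2.91) and 2.25-fold higher than in Leu- (2.01 to 2.52). With CHX its level in Met- was 1.86-fold that in Arg- and 1.98-fold that in Leu-, but the median log2 ratio of all genes listed in both libraries was 1.05 for Met- over Arg- and 0.84 for Met- over Leu-. Relative to that median the GLUL log2 ratio was -0.16 over Arg- and 0.14 over Leu- with CHX, against 1.08 and 1.01 without. ASNS stayed lower in Met- than in either of the other two media after the median was subtracted, at -2.84 over Arg- and -1.40 over Leu- with CHX and at -1.10 and -0.78 without. For Met- over Leu- with CHX, centring took the log2 ratio of GOT2 from 0.51 to -0.33 and that of GPT2 from 0.81 to -0.03. Without CHX it took GOT2 from 0.46 to 0.30, with the same sign, and GPT2 from 0.11 to -0.04.

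The mRNAs whose 6 ratios were most like those of ASNS, by the root mean square difference in log2 ratio over 4396 genes, were STC2 (1.0), SESN2 (1.12), SLC7A1 (1.26), SLC3A2 (1.30) and TARS1 (1.34). SLC7A1 and SLC3A2 encode amino acid transporter subunits, SESN2 a leucine-binding regulator of mTORC1, TARS1 the cytosolic threonyl-tRNA synthetase and STC2 a secreted glycoprotein. Even the nearest, STC2, thus differed from ASNS by about 2-fold per comparison, most in Arg- with CHX, where its log2 ratio was 2.65 against 4.73 for ASNS. GPT2 had closer neighbours, in MCM2 (0.23), CLIC4 (0.24) and HIRIP3 (0.28). The ratios of a series share its Suff library, so likeness among them is a description.

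The wider pathway was followed in lists totalling 77 genes, of which 64 were listed in at least 1 library. Without CHX, 16 of 53 list genes that passed the filter were at least 2-fold higher and 2 lower in Arg-, 19 of 54 higher and 1 lower in Leu-, and 20 of 54 higher and 3 lower in Met-, against the shares of all genes given for the members. With CHX and unlisted genes counted as 0, 29 of 44 were higher and 3 lower in Arg-, 29 of 43 higher and 1 lower in Leu-, and 12 of 32 higher and 15 lower in Met-. All genes counted in this way were 29.7% higher and 18.4% lower in Arg-, 26.3% and 6.32% in Leu-, and 21% and 61.9% in Met-. All 15 list genes lower in Met- were unlisted in that library and counted at 0. Among genes listed in both libraries with CHX, 21 of 36 were higher and 3 lower in Arg-, 22 of 36 higher and 1 lower in Leu-, and 11 of 16 higher and 0 lower in Met-. The corresponding shares of all genes were 16.6% higher and 19.7% lower in Arg-, 12.1% and 7.28% in Leu-, and 46.7% and 9.79% in Met-.

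Of ATF4 and the other stress regulators that passed without CHX, 8 of 8 were at least 2-fold higher in Arg- against 8.33% of all genes, 8 of 8 in Leu- against 6.89% and 9 of 9 in Met- against 20.2%. DDIT3, TRIB3, PPP1R15A and, in Met-, ATF5 were under 10 RPKM in Suff and passed only through the deficient library, so the filter partly fixed these counts. This list was chosen with earlier results of these data known. ATF4 itself was 251 RPKM in Suff, 700 RPKM in Arg-, 1098 RPKM in Leu- and 662 RPKM in Met- without CHX. DDIT3, a transcription factor of the same response, was 4.40 RPKM in Suff, 101 RPKM in Arg-, 110 RPKM in Leu- and 26.5 RPKM in Met-. TRIB3, ATF3 and PPP1R15A, feedback and stress genes of the response, had log2 ratios without CHX between 1.14 (ATF3 in Met-) and 3.98 (TRIB3 in Arg-). ATF4 was highest in Leu- while ASNS was highest in Arg-.

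Transporters of glutamine, glutamate and neutral amino acids were the other list in which most members were higher, with 4 of 5 at least 2-fold higher in each medium without CHX. These were SLC1A4, SLC1A5, SLC38A1 and SLC38A2. The fifth, SLC1A3, was lower in Arg-, at 9.91 RPKM against 23.7 RPKM in Suff, and passed there only through Suff. SLC1A5, an exchanger of glutamine, was 140 RPKM in Suff, 304 RPKM in Arg-, 310 RPKM in Leu- and 379 RPKM in Met-. SLC1A4, which passed only through the deficient libraries, was 5.38 RPKM in Suff and 34.7 to 39.2 RPKM in the deficient media. SLC38A2, which takes up glutamine with sodium, was 60.7 RPKM in Suff, 193 RPKM in Arg-, 239 RPKM in Leu- and 126 RPKM in Met-.

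Enzymes that consume the same substrates differed from Suff less uniformly. Of 6 glutamine amidotransferases that passed without CHX, 1 was at least 2-fold higher and 1 lower in each medium. The higher one was GFPT1, the first enzyme of hexosamine synthesis, at 12.7 RPKM in Suff and 35.9 to 48.8 RPKM in the deficient media. The lower one was CAD, which starts pyrimidine synthesis, at 20.2 RPKM in Suff and 7.82 to 9.50 RPKM in the deficient media. CAD passed only through Suff, and like SLC1A3 it was named after its values were seen, because the count is 1. With CHX it did not pass, at 5.03 RPKM in Suff, 5.89 RPKM in Arg- and 3.75 RPKM in Leu-, and was not listed in Met-. Without CHX the shares of all genes were 8.33% higher and 6.05% lower in Arg-, 6.89% and 2.12% in Leu-, and 20.2% and 5.47% in Met-. Of 8 other glutamate-linked enzymes, 1 was at least 2-fold higher in Arg-, 2 in Leu- and 3 in Met-, where 1 was lower. Among them PSAT1, the aminotransferase of serine synthesis, was 332 RPKM in Suff, 831 RPKM in Arg-, 1203 RPKM in Leu- and 769 RPKM in Met-. BCAT1, the cytosolic branched-chain aminotransferase, was 85.7 RPKM in Suff, 129 RPKM in Arg-, 196 RPKM in Leu- and 128 RPKM in Met-.

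Without CHX, genes that use aspartate or shuttle it between compartments were mostly within 2-fold. With CHX, among genes listed in both libraries, 2 of 5 shuttle genes were at least 2-fold higher and 0 lower in Arg- and in Leu-. In Met- 0 of 3 were at least 2-fold changed. Of aspartate-use genes, 1 of 5 was higher and 1 lower in Arg- and in Leu-, and 1 of 2 higher in Met-. The shares of all such genes were 16.6% higher and 19.7% lower in Arg-, 12.1% and 7.28% in Leu-, and 46.7% and 9.79% in Met-. Of 6 malate-aspartate shuttle genes and carriers that passed, 0 were at least 2-fold changed in any medium without CHX, and their median log2 ratio was -0.15 in Arg-, 0.06 in Leu- and -0.23 in Met-. Of 6 genes of aspartate use that passed without CHX, 1 was higher in Arg- and in Leu-. It was ASS1, which joins aspartate to citrulline on the way to arginine. ASS1, also named after its values were seen, was 35.5 RPKM in Suff, 98.7 RPKM in Arg-, 97.6 RPKM in Leu- and 39.7 RPKM in Met-. In Met- 1 gene of aspartate use was lower, ADSS2, an enzyme of AMP synthesis, at 116 RPKM in Suff and 55.4 RPKM in Met- without CHX, and it was not listed in Met- with CHX, which gives no measured direction there. Of 6 tRNA synthetases for asparagine, glutamine, aspartate and glutamate, 1 was at least 2-fold higher in each medium. NARS1, which charges asparagine to its tRNA, was 77.4 RPKM in Suff, 154 RPKM in Arg-, 185 RPKM in Leu- and 132 RPKM in Met-. EPRS1, which charges glutamate and proline, was 38.5 RPKM in Suff and 75.9 to 97.8 RPKM in the deficient media. In NAD synthesis 0 of 5 genes were at least 2-fold higher in Arg-, 2 of 6 in Leu- and 1 of 5 in Met-. The shares of all genes were 8.33%, 6.89% and 20.2%. Every NAD synthesis gene counted as higher was under 10 RPKM in Suff and passed only through the deficient library. NMNAT1, which acts one step before NADSYN1, was 8.34 RPKM in Suff, 11.8 RPKM in Arg-, 30.2 RPKM in Leu- and 32.9 RPKM in Met-.

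**Figure D4:**
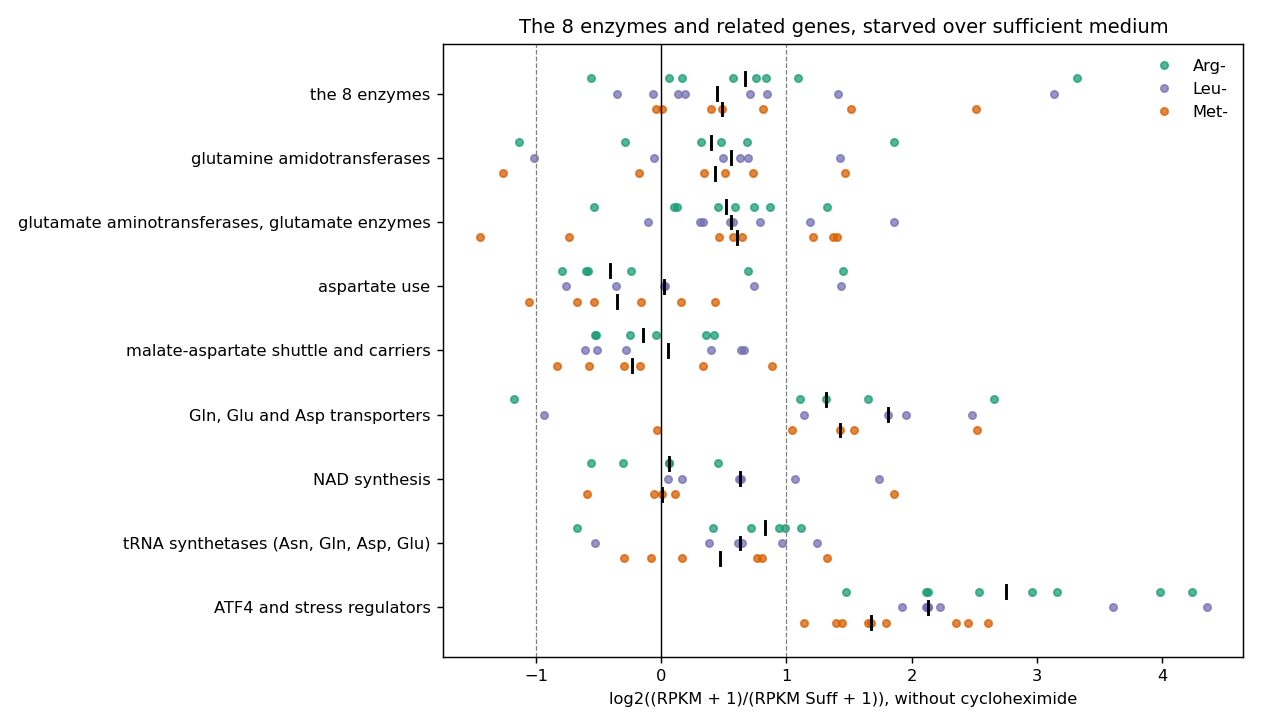
Log2 ratio to Suff without CHX of each gene that passed the filter, for the enzymes and 8 of the lists, with 1 row per medium and black ticks at the medians. The stress regulators that passed lie above 1 in all 3 media, while the malate-aspartate shuttle genes lie within 1 of 0. Of the 8 enzymes, ASNS and GPT2 lie above 1.

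The members differ in how much of each missing amino acid their proteins contain. GLUL is poor in leucine, at 5.63% of residues against a median of 9.76% over 11063 transcripts, and rich in methionine, at 3.22% against 2.13%. ASNS holds 10.5% leucine, 2.50% methionine and 4.81% arginine, the median for arginine being 5.63%. GOT1 has the least methionine of the 8, at 1.45%, and ASNSD1 the most leucine, at 11.7%.

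In GRCh38, as drawn by GENCODE release 44, the genes lie at chr7:97851677-97872542 on the minus strand (ASNS), chr1:182378098-182392206 on the minus strand (GLUL), chr10:87050202-87094843 on the minus strand (GLUD1) and chr10:99396870-99430624 on the minus strand (GOT1). GOT2 lies at chr16:58707131-58734342 on the minus strand, GPT2 at chr16:46884362-46931289 on the plus strand, ASNSD1 at chr2:189661385-189670831 on the plus strand and NADSYN1 at chr11:71453109-71524107 on the plus strand.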

How the data were processed

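HEK293T ribosome footprints were profiled in 8 libraries, 1 per condition. Per the methods and labels, the authors trimmed adaptors, kept reads of 25 to 35 nt, trimmed bases of low quality with Trimmomatic, aligned them to the human transcriptome (GRCh38) with Bowtie without mismatches and used uniquely mapped reads. The annotation release is not given in the sources used here, and the submitters' processing notes also name cutadapt. They deposited 1 RPKM value for each Ensembl transcript, and the file names of the series without CHX carry a mark of duplicate removal that the methods do not mention.

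Transcripts were matched to GENCODE release 44, which held 96.7% to 97.1% of those in each library. RPKM multiplied by coding length fell on whole steps, within 0.01 of a read, for 97.1% to 97.4% of matched transcripts, which gave the reads. The stop codon was part of the length without CHX and not with CHX. Exact Poisson intervals (levels) and Clopper-Pearson intervals (folds) were computed at 95%. Genes not listed counted as 0 in counts over genes. Groups came from the sample labels. With 1 library per condition no test was run. Scripts were tested on simulated data, and run with scipy 1.17.1, pandas 2.3.3, numpy 2.4.6, Biopython 1.88 and matplotlib 3.10.9 under Python 3.11.15. The members and lists were chosen with earlier results of these data known.

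Named besides the 8 members were the 5 genes whose ratios lay nearest to those of ASNS and the 3 nearest to each other member at least 2-fold changed the same way in both series, up to 4 genes per list at least 2-fold changed the same way in both series with unlisted genes counted as 0, and ATF4, DDIT3, NARS1, GLUD2 and ASDURF. CAD, SLC1A3, ASS1 and ATF5 fell outside this rule and were named after their values were seen. One further gene is not reported here. As alternatives, results were recomputed with no minimum, with a minimum of 50 RPKM, with a pseudocount of 0.1, and with summed transcripts, the transcript highest in Suff, genes listed in both libraries, and ratios centred on the median.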

Additional observations from a re-analysis of the deposited data

Results flagged for a closer look

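The GLUL ratio to Suff differed between the series with and without CHX in 2 media. In Arg- the log2 ratio was 0.98 with CHX and -0.56 without, a difference of 1.53. In Leu- it was 0.88 with CHX and -0.35 without, a difference of 1.24. Each ratio compares 1 library with 1 library, and the difference between the series was not tested. None of the counting intervals of these 4 ratios includes 0 on the log2 scale. In Met- the ratio had the same sign in both series, at 1.87 with CHX and 0.81 without.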

How the results depend on the processing

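No paired analysis was possible because the labels give each condition 1 library, so that no groups share a second replicate number and no library could be left out of a group. A fit that takes the series with and without CHX as blocks was not run, since they differ in treatment and processing and are not repeats of a condition. Values in brackets are the reported values, with unlisted genes counted as 0. Of 168 counts recomputed under the alternatives, 149 stayed within 1.5 times the value reported and 19 did not. With a minimum mean of 50 RPKM, members at least 2-fold higher in Leu- with CHX numbered 3 (5) and members lower in Met- with CHX 0 (1), while list genes higher with CHX numbered 15 in Arg- (29) and 17 in Leu- (29), and 12 in Met- without CHX (20). List genes lower were then 1 in Arg- (3), 0 in Leu- (1) and 1 in Met- (15) with CHX, and 0 in Arg- (2) and 0 in Leu- (1) without it. With no minimum, members lower in Met- were 2 with CHX (1) and 1 without (0), and list genes lower without CHX were 4 in Arg- (2) and 2 in Leu- (1). Over genes listed in both libraries, members lower in Met- with CHX were 0 (1) and list genes lower 0 (15). After centring, list genes higher in Met- with CHX were 5 (12), and list genes lower without CHX were 2 in Leu- (1) and 6 in Met- (3). A stricter minimum tests fewer genes, and the causes of the other shifts were not tested. For single members, a shift was set against the distance from the middle of the counting interval to its ends. Where a ratio had no interval, it was set against 1 log2 unit. Of 456 values, 410 moved by no more than this and 45 by more. Of the latter, 31 moved on centring and 14 with the smaller pseudocount, all 14 in ratios that involve an unlisted gene and have no interval. The other 1 reversed: with the transcript highest in Suff, NADSYN1 in Leu- over Arg- with CHX was -0.52 on the log2 scale against 1.17, since a shorter transcript gave the reported value. Depth limits GLUD1, GOT1, ASNSD1 and NADSYN1 in Met- with CHX, where their limits of 56.1 to 96.0 RPKM allow a level above or below Suff, and NADSYN1 in Met- without CHX, which rests on 9 reads.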
